A study of Mus musculus with 11 samples.

Results

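The tibialis anterior (TA), a fast muscle of the shin, was compared between untreated mdx and C57 mice at 14 weeks of age, using 7 of the 11 arrays of the series: 4 mdx mice and 3 C57 mice, with RNA from each mouse on 1 Affymetrix array. The mdx mouse carries a premature stop codon in Dmd and lacks full-length dystrophin in all of its tissues from birth, apart from rare revertant fibres, so the loss is neither induced nor limited to muscle. All mice were male, mdx animals being of the C57/Bl10ScSn-Dmd mdx/J line and controls C57/Bl10 (C57/B10 in the labels) with the wildtype genotype, and none of these 7 mice was injected. The other 4 mdx mice of the series, which received 12.5 mg/kg of the exon-skipping conjugate Pip6e-PMO at 12 weeks of age, were not compared here. RNA came from cryosections of the middle of the muscle, so the arrays read every cell type in the section together. In such bulk RNA, fewer cells of a type and less RNA per cell cannot be told apart.

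Dystrophin links the actin cytoskeleton of the muscle fibre, through a complex of membrane proteins, to laminin in the basement membrane. Without it fibres tear during contraction, die and are rebuilt by satellite cells, macrophages clear the debris, and matrix fills the space between fibres. The comparison asked which groups of genes move with the absence of dystrophin when whole programmes are read, and not the largest single genes alone.

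Intensities were taken to log2, and 11624 gene symbols reached a mean signal of 30 (4.91 on the log2 scale) in at least 1 of the groups, each read by the probe set with the highest mean. A gene was called when its Benjamini-Hochberg adjusted p in limma was under 0.05 over all 11624 symbols, and every test was two-sided. By this rule 1727 symbols (14.9%) differed, of which 1096 (9.43%) were up-regulated and 631 (5.43%) were down-regulated in mdx muscle. The median size of the called differences was 0.66 for the higher and -0.54 for the lower genes on the log2 scale, and 239 and 52 of them reached 2-fold. The median difference over all symbols was -0.01. A group mean under 30 lies near background, which limits how large a difference can be measured, and this held for the C57 mean of 180 higher and the mdx mean of 54 lower genes. Such genes were tested only because the other group reached 30, and genes low in both groups enter no count. All 4 mdx mice lay above all 3 C57 mice in 14.3% of the symbols, and below them in 11.7%. Of the called symbols 63.5% were higher in mdx, or 53.6% when each array was centred on its median and 56.8% when quantile normalization was repeated. Without C57 replicate 2 the counts were 593 higher and 295 lower, and 804 of the 1727 genes were called in every fit that left out 1 mouse. The markers of skeletal muscle were abundant in every mouse, with Ckm, the muscle creatine kinase, at intensities of 9410 to 9878. Those of liver and skin (Alb, Apoa1, Ttr, Krt5 and Krt14) were at most 27.1. Of the heart markers, Nppa and Myl7 were at most 16.45. Myh6, at 28.64 to 47.5, reached the minimum signal and was called between the groups, also without each mouse.

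Genes were grouped in 49 lists with 971 distinct tested members, of which 227 were higher and 85 lower in mdx muscle. The lists held 18.1% of all called genes, and 1415 called genes belonged to none of them. A list is described below by its counts and by the median difference of its tested members, which can be read against the median of -0.01 and the shares of 9.43 and 5.43% over all symbols. Of the 971 members, 59 were read by a probe set that the deposited table marks as matching more than 1 transcript, and 36 by a probe set placed on another chromosome than the gene. The plot of 17 lists shows every tested member.

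**Figure D1:**
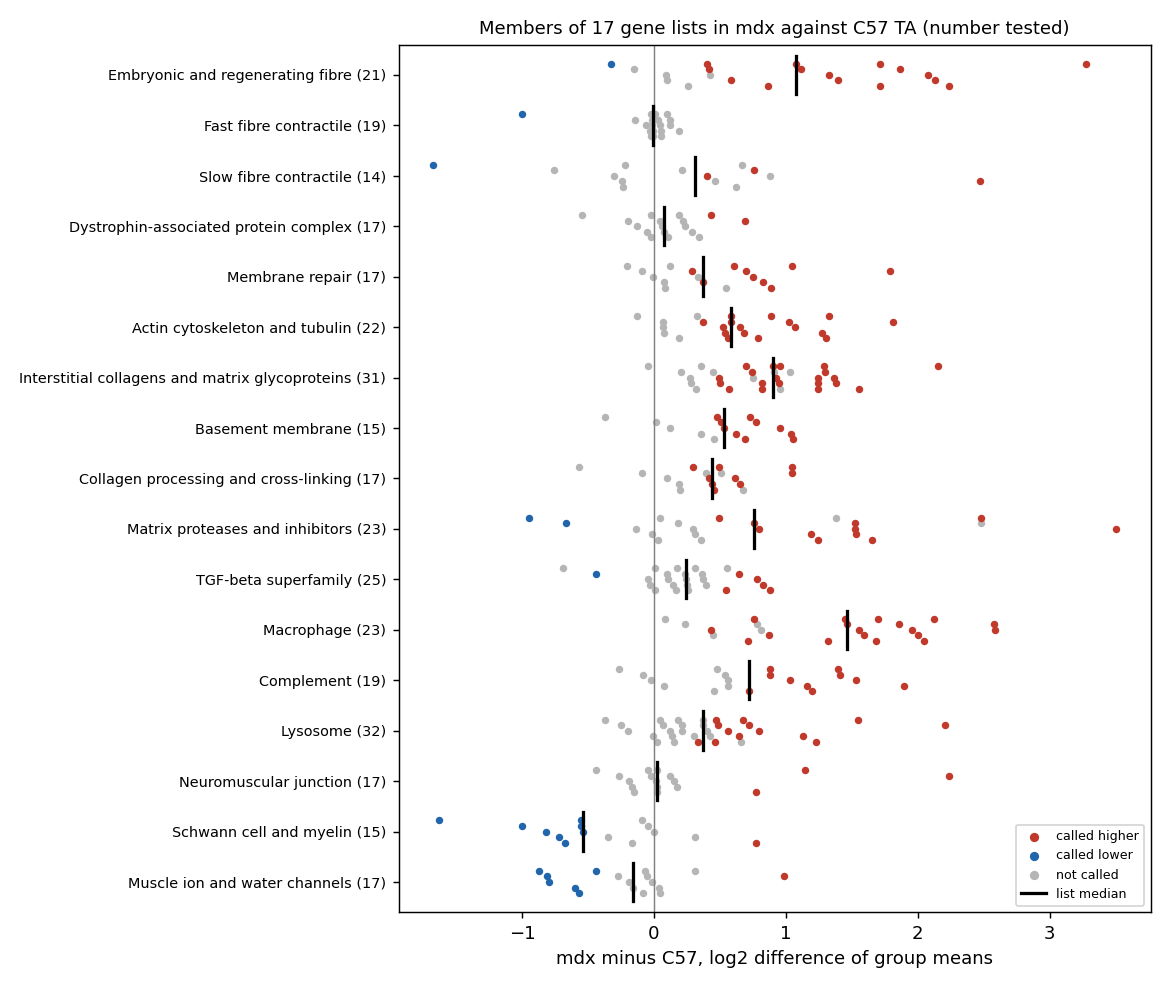
Difference between the mdx (n = 4) and C57 (n = 3) means on the log2 scale for every tested member of 17 gene lists, with called genes in colour and the list median as a black bar. The macrophage list sat farthest to the right with a median of 1.46, the fast fibre list lay around 0, and the Schwann cell list had a median of -0.54.

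Genes of newly formed fibres were higher in mdx muscle, while those of the mature fast fibre differed little. Of 21 tested members of the embryonic and regenerating fibre list, 15 rose and 1 fell, against 9.43 and 5.43% of all symbols, and the median difference was 1.08. Mymk (Tmem8c in the files), the membrane protein that drives fusion of myoblasts, had log2 signals of 5.53, 5.11 and 5.02 in C57 and 8.56, 8.41, 9.27 and 7.75 in mdx mice. Its difference was 3.28 (SE 0.29, adjusted p = 0.000198), and its lowest mdx mouse lay well above its highest C57 mouse. Igf2, a fetal growth factor that is expressed again in regenerating fibres, measured 7.86, 7.89 and 8.07 in C57 and 9.80, 9.93, 10.45 and 9.90 in mdx, a rise of 2.08 (SE 0.15, adjusted p = 8.12e-05). Chrng, the fetal subunit of the acetylcholine receptor, rose by 2.24 (SE 0.26, adjusted p = 0.000655) from a C57 mean below the minimum signal, and Mybph, a thick filament protein, by 2.13 (SE 0.27, adjusted p = 0.000967). Embryonic myosin Myh3 and the differentiation factor Myog were called as well, with differences of 1.87, from a C57 mean below the minimum signal, and 1.71. Pax7, the marker of satellite cells, had a difference of 0.26 and Myod1 of 0.42, and neither was called. The gene that fell was Dlk1 (-0.33, adjusted p = 0.0426), a transmembrane protein of the fetal muscle, and that call ended when any 1 of the 7 mice was left out (adjusted p up to 0.105).

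Of the 19 tested genes of the fast contractile apparatus, 0 rose and 1 fell, with a median difference of -0.004 that was 0.002 after repeated quantile normalization. The member that fell was Myh2, the myosin of fast oxidative fibres. It measured 9.15, 9.63 and 8.98 in C57 and 8.66, 7.85, 8.71 and 7.79 in mdx, with a difference of -1.0 (SE 0.26, adjusted p = 0.0289), and the call ended without C57 replicates 1 or 2 or mdx replicates 2 or 4 (adjusted p up to 0.125). Myh4 and Myh1, the myosins of the faster fibres, had differences of 0.01 and 0.19.

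The slow contractile list did not move in 1 direction. Of 14 tested members 3 rose and 1 fell, and the median difference was 0.31. Tnni1, the slow troponin I that is also made by developing fibres, measured 6.93, 6.61 and 6.94 in C57 and 9.15, 9.45, 10.30 and 8.30 in mdx, a rise of 2.47 (SE 0.37, adjusted p = 0.00228). Atp2a2, the slow calcium pump, rose by 0.76 (SE 0.10, adjusted p = 0.00151), and Tpm3, the slow tropomyosin, by 0.40 (adjusted p = 0.0359, up to 0.117 without single mice other than mdx replicate 1). The probe set of Tpm3 matches more than 1 transcript, and its probe set of 1 transcript gave -0.11 (adjusted p = 0.679), so that call and its direction rest on the probe set read. The list then had 2 higher genes and a median of 0.05. Myl3, the slow and ventricular essential light chain, ran the other way, with 9.12, 9.87 and 9.85 in C57 against 7.83, 7.92, 8.38 and 7.63 in mdx and a fall of 1.67 on the log2 scale (SE 0.22, adjusted p = 0.00120). Slow myosin Myh7 itself stayed below the minimum signal, at intensities of 23.1 to 30.1.

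Transcripts of the dystrophin complex differed little from C57, although dystrophin itself is missing. Dmd measured 5.87, 5.83 and 5.77 in C57 and 5.82, 5.36, 5.33 and 4.60 in mdx, a difference of -0.55 (SE 0.23) that was not called (adjusted p = 0.150). The stop codon of mdx removes none of the probe targets, so this level does not check the labels. Of 17 tested members 2 rose and 0 fell, and the median difference was 0.07. Sntb2, a syntrophin, rose by 0.43 (SE 0.09, adjusted p = 0.0107), with every mdx mouse between 7.34 and 7.46 and every C57 mouse between 6.89 and 7.02. Lama2, the laminin chain outside the fibre to which the complex binds, rose by 0.69 (adjusted p = 0.0370), but its groups overlapped and the call ended without C57 replicates 2 or 3 or mdx replicates 1, 2 or 3 (adjusted p up to 0.149). Without any of these 5 mice Sntb2 was the member that rose, and without mdx replicate 1 Dmd was called lower (-0.73, adjusted p = 0.0423). Utrn, the paralogue of dystrophin, had a difference of 0.11 (adjusted p = 0.669), Sgca, Sgcb, Sgcd and Sgce, sarcoglycans, had -0.02, 0.22, -0.03 and 0.19, and Dag1, dystroglycan, had 0.06. Sntb1 (0.34), Dtna (0.29), Cav3 (0.24), Sspn (0.04), Dtnb (-0.05) and Nos1 (-0.20) were not called either, the lowest adjusted p among them being 0.0851 for Sntb1.

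Around the complex, genes for sealing the membrane and for the cytoskeleton were higher. Of 17 tested membrane repair genes 9 rose and 0 fell, with a median difference of 0.37, and without C57 replicates 2 or 3 or mdx replicate 2 the count was 5. Anxa2, Anxa4 and Anxa5, annexins that gather at membrane lesions, rose by 0.89, 1.05 and 0.83 (adjusted p = 0.00718, 0.00355 and 0.00353). Ahnak2, a large scaffold protein of the same gene family as the dysferlin partner Ahnak, measured 6.50, 6.23 and 5.91 in C57 and 7.75, 7.88, 7.97 and 8.40 in mdx, a rise of 1.79 (SE 0.18, adjusted p = 0.000321). Dysf, Trim72 and Capn3 did not pass the test, with differences of 0.09, -0.09 and -0.20.

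In the actin and tubulin list 16 of 22 tested members rose and 0 fell, the median difference was 0.59, and without C57 replicate 2 the count was 10. Tubb6, a beta tubulin isotype, had 7.37, 7.21 and 7.28 in C57 and 8.86, 8.91, 9.08 and 9.55 in mdx, a rise of 1.81 (SE 0.16, adjusted p = 0.000179). Tubb2b rose by 1.28 (adjusted p = 0.000389), and Tmsb10, a thymosin that binds free actin, by 1.30 (adjusted p = 0.000365) in a probe set that matches more than 1 transcript. Coro1a, a coronin of white blood cells, rose by 1.33 (adjusted p = 0.0104, or 0.0536 without C57 replicate 2). The ubiquitous actins Actb and Actg1 had differences of 0.07 each and were not called.

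Among genes of the Z-disc and of the response to stretch, 3 of 17 tested members rose and 1 fell, around a median of 0.02 that was -0.02 with median-centred arrays. Ankrd1, a titin-binding factor that rises when muscle is stretched, measured 5.44, 4.57 and 5.55 in C57 and 8.75, 7.36, 8.41 and 7.43 in mdx, a rise of 2.80 (SE 0.36, adjusted p = 0.00117). Xirp1, an actin-binding protein of damaged myofibrils, rose by 0.82 (adjusted p = 0.00660). Cavin4 (Murc in the files), a caveolar protein of muscle, rose by 0.47, and Fhl3, a LIM domain protein, fell by 0.42 on the log2 scale. The calls of Cavin4 and Fhl3 ended without C57 replicates 2 or 3 or mdx replicates 1 or 2, and that of Fhl3 also without mdx replicate 3 (adjusted p up to 0.0921 and 0.111).

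Matrix genes were higher across most of their classes, basement membrane and proteases included. Of 31 tested interstitial collagens and matrix glycoproteins 20 rose and 0 fell, and the median difference was 0.90. Col3a1, a fibrillar collagen of early scars, measured 8.37, 8.47 and 8.92 in C57 and 10.01, 9.98, 10.12 and 9.76 in mdx, a rise of 1.38 (SE 0.15, adjusted p = 0.000424). Lum, a small proteoglycan that binds collagen fibrils, rose by 1.56 (adjusted p = 0.00933), and Postn, a matrix protein of wound repair, by 2.16 (SE 0.55, adjusted p = 0.0272). Postn varied widely among the mdx mice, with 7.74, 6.14, 8.37 and 6.03, and its call ended without C57 replicates 1 or 2 or mdx replicate 1 (adjusted p up to 0.116). The main fibrillar collagen genes Col1a1 and Col1a2 had differences of 0.20 and 0.32 and Dcn, decorin, of 0.36, and none of these was called.

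Of 15 tested basement membrane genes 10 rose and 0 fell (1 without mdx replicate 4), with a median difference of 0.53. Col4a1 and Col4a2, the chains of the main basement membrane collagen, rose by 1.04 and 0.96 (adjusted p = 0.000374 and 0.000679), and in both all mdx mice lay at 8.50 or above and all C57 mice at 7.85 or below. Col15a1 rose by 1.06 and Lamb1, a laminin chain, by 0.77. Of 17 genes that process or cross-link collagen 9 rose and 0 fell, with a median of 0.44, and the count was 4 without C57 replicate 2 and 5 without C57 replicate 3. Loxl1, a lysyl oxidase that cross-links elastin, rose by 1.05 (SE 0.12, adjusted p = 0.000725), and Serpinh1, the collagen chaperone of the endoplasmic reticulum, by 0.66 (adjusted p = 0.00276). P4ha3, a prolyl hydroxylase, rose by 1.05 from a C57 mean below the minimum signal.

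Every matrix protease that was called rose, while members of the TIMP family of inhibitors were called in both directions. Of 23 tested members 11 rose and 2 fell, and the median difference was 0.76. Timp1, an inhibitor of metalloproteinases that is induced in injury, measured 6.0, 5.19 and 5.94 in C57 and 9.06, 8.96, 8.61 and 10.23 in mdx, a rise of 3.51 (SE 0.35, adjusted p = 0.000321). Timp4 measured 10.24, 10.12 and 10.21 in C57 and 9.32, 9.47, 9.33 and 8.87 in mdx, a fall of 0.94 on the log2 scale (SE 0.14, adjusted p = 0.00219), and Timp3 fell by 0.67 (SE 0.11, adjusted p = 0.00308). Mmp14, the membrane-bound metalloproteinase that activates Mmp2, rose by 1.53 (SE 0.11, adjusted p = 8.20e-05). Mmp3 and Adamts4 rose by 2.48 and 1.66 from C57 means below the minimum signal.

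Of 25 tested genes of the TGF-beta superfamily 5 rose and 1 fell, with a median of 0.24, and without C57 replicate 2 the higher genes numbered 3. Tgfb1 rose by 0.88 (SE 0.13, adjusted p = 0.00233), with 7.59, 7.59 and 7.98 in C57 and 8.50, 8.48, 8.60 and 8.83 in mdx, and Tgfb2 rose by 0.64 (adjusted p = 0.00211). Fst, follistatin, an antagonist of myostatin and activin, rose by 0.83 (adjusted p = 0.00441). Bmp6 fell by 0.44 on the log2 scale, and that call ended without C57 replicates 2 or 3 or mdx replicates 1, 2 or 4 (adjusted p up to 0.132). Of 17 markers of fibroblasts and fibro-adipogenic progenitors 5 rose and 0 fell, with a median of 0.34. The count was 2 without C57 replicates 2 or 3 or mdx replicate 2, and 3 without mdx replicate 3 or with median-centred arrays. S100a4 rose by 2.57 (SE 0.34, adjusted p = 0.00122) and Mfap5, a microfibril protein, by 0.83 (adjusted p = 0.00289), while Pdgfra, the receptor by which the progenitors are sorted, had a difference of 0.56 and was not called. The summed intensity of these 17 markers ranged from 8877 to 9505 in C57 and from 11099 to 13101 in mdx mice, and its part in the matrix differences was not tested.

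Genes of macrophages were higher in mdx muscle in nearly every member read. Of 23 tested members 18 rose and 0 fell, all 23 had a positive difference, and the median was 1.46. Cd68, a lysosomal glycoprotein of macrophages, measured 7.53, 7.30 and 7.41 in C57 and 9.16, 9.88, 9.13 and 9.97 in mdx, a rise of 2.12 (SE 0.21, adjusted p = 0.000339). Lgals3, galectin 3, measured 6.96, 6.74 and 6.42 in C57 and 8.87, 9.70, 9.05 and 9.51 in mdx, a rise of 2.58 (SE 0.21, adjusted p = 0.000126). Gpnmb, a membrane glycoprotein of phagocytes full of lipid, rose by 2.05 (SE 0.38, adjusted p = 0.00657), and Mpeg1, the pore-forming perforin-2, by 2.58 (SE 0.15, adjusted p = 3.05e-05) from a C57 mean below the minimum signal. Markers of resident macrophages were mixed. Lyve1 and Siglec1 were among the 18 that rose, though each call was lost in some fit without 1 mouse. Folr2 and Mrc1 had differences of 0.24 and 0.45 and were not called. Cd163, Aif1, Ccr2 and Msr1 did not reach the minimum signal in either group and are not in these counts. Cd163 ran the other way, with intensities of 26 to 30.7 in C57 and 22.2 to 24.3 in mdx mice. Ccr2 and Msr1 lay higher in every mdx mouse than in any C57 mouse, and the groups overlapped in Aif1. The summed intensity of the 23 members ranged from 2335 to 2774 in C57 and from 5079 to 8372 in mdx mice.

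Other blood cell types left little that could be read. Of 21 lymphocyte and natural killer cell genes 19 lay below the minimum signal, and the 2 tested, Nkg7, a granule protein of cytotoxic cells, and Cd79b, of the B cell receptor, rose by 2.00 (adjusted p = 0.000198, from a C57 mean below the minimum signal) and 0.40 (adjusted p = 0.0387, up to 0.114 without single mice). Of 19 granulocyte and mast cell genes 5 were tested and 2 rose, Csf3r, the receptor of granulocyte colony-stimulating factor, by 0.98 (adjusted p = 0.000388) and Retnlg by 1.30 (adjusted p = 0.0325, up to 0.121 without single mice), both from C57 means below the minimum signal. The call of Cd79b ended without any mouse other than mdx replicate 3, and that of Retnlg without any C57 mouse or mdx replicates 2 or 3. Without these mice, and for the lymphocyte list under both other scalings, each list had 1 called member.

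Most genes of MHC class II were higher in mdx muscle, and most of class I were not called. Molecules of MHC class II display peptides from engulfed protein on macrophages, dendritic cells and B cells, while those of class I display peptides of the cell itself on nearly all cells. Of 9 tested class II genes 8 rose and 0 fell, with a median difference of 1.28. H2-Ab1 measured 9.06, 9.09 and 9.47 in C57 and 10.56, 11.01, 10.82 and 10.78 in mdx, a rise of 1.59 (SE 0.14, adjusted p = 0.000171). H2-Aa, which encodes its partner chain, rose by 1.51 (SE 0.13, adjusted p = 0.000152), and H2-Eb1 by 1.5 (SE 0.14, adjusted p = 0.000255). Cd74, the invariant chain, rose by 1.28, and Ciita, the coactivator that switches the class II genes on, by 0.69 from a C57 mean below the minimum signal. Ctss, the protease that cuts the invariant chain, measured 5.09, 5.19 and 5.22 in C57 and 7.13, 7.45, 7.53 and 7.37 in mdx, a rise of 2.20 (SE 0.11, adjusted p = 1.04e-05).

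In class I, 1 of 15 tested genes rose and 0 fell, with a median difference of 0.11. The gene that rose was B2m, the light chain of class I, by 0.64 (adjusted p = 0.0370), and that call ended without C57 replicates 1 or 3 or mdx replicates 1, 2 or 3 (adjusted p up to 0.115). The heavy chains H2-K1 and H2-D1 had differences of 0.11 and 0.22, and the peptide transporters Tap1 and Tap2 of 0.03 and -0.09. The difference between the lists was not tested. Of 19 tested interferon response genes, which class I genes often follow, 1 rose and 0 fell with a median of 0.23. That gene was Ifi27l2a, by 0.88 (SE 0.12, adjusted p = 0.00172), while Irf7 had a difference of 0.46, and 2 genes were called without C57 replicate 1 and 4 without mdx replicate 3.

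**Figure D2:**
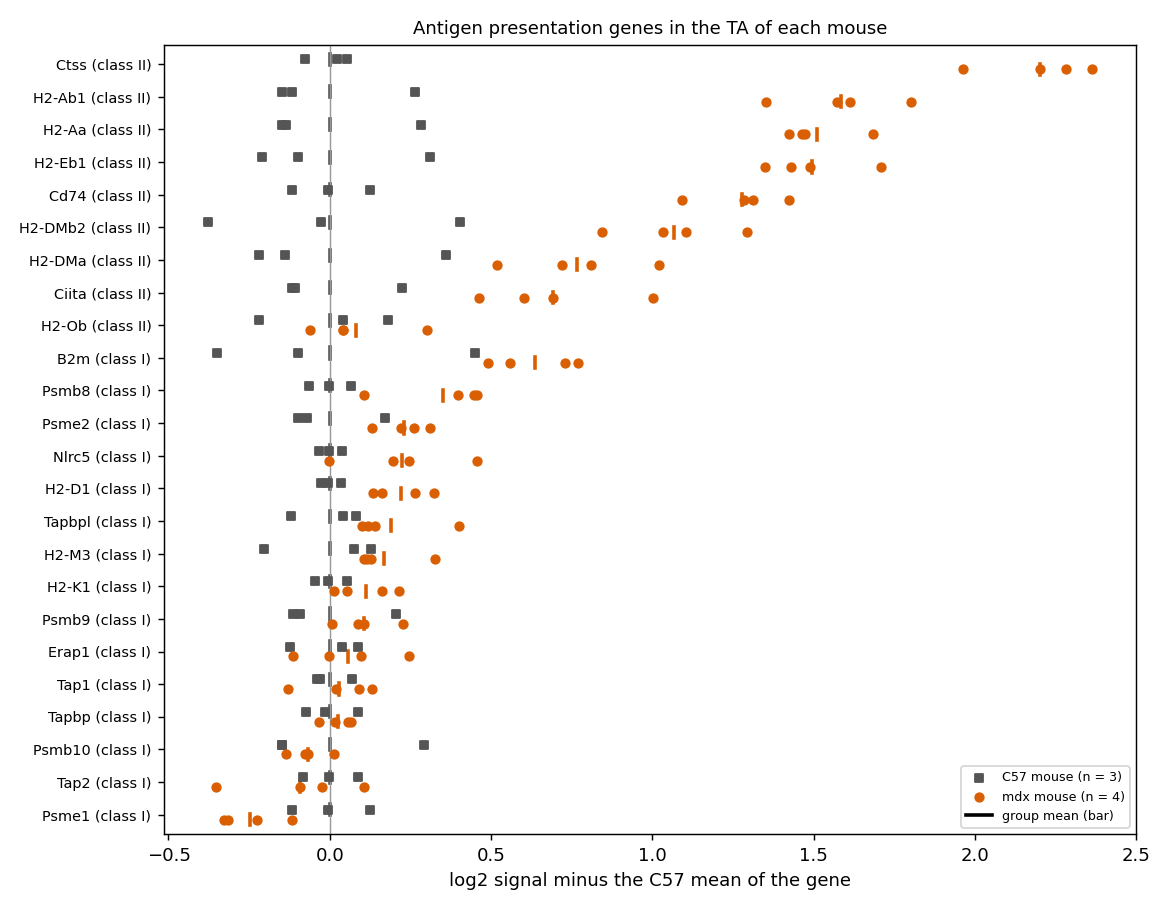
Log2 signal of each antigen presentation gene in each mouse, minus the C57 mean of that gene, for 9 class II and 15 class I genes, with C57 mice (n = 3) as squares, mdx mice (n = 4) as circles and group means as bars. All mdx mice lay to the right of all C57 mice in 8 of the class II and in 4 of the class I genes. Over all symbols this share was 14.3%.

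The promoters of the class II list were read for the Y box, the element bound by NF-Y in class II promoters, spelled CTGATTGG here and searched on both strands of the 250 bases before each RefSeq start (GRCm38.p6). Of the 6 members found there, 2 held it, against 4.43% of 27025 genes. The stretches around it in H2-Aa (chr17:34287837-34287904, minus strand) and H2-Eb1 (chr17:34305775-34305842, plus strand) are shown 5′ to 3′ with the Y box in capitals. They describe these sequences and are no measurement of binding.
H2-Aa: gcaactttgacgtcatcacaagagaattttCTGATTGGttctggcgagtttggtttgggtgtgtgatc
H2-Eb1: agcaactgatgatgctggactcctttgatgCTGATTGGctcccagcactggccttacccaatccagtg

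Complement, chemokine and lysosome genes were higher too. Of 19 tested complement genes 10 rose and 0 fell, with a median of 0.72. C1qa, C1qb and C1qc, the chains of the recognition protein C1q, rose by 1.39, 1.53 and 1.41 (adjusted p = 0.000315, 0.000143 and 0.000157), while C3, the central component, had a difference of -0.08 and was not called. Of 22 tested chemokines and cytokines 12 rose and 1 fell, with a median of 0.70. Ccl6 rose by 1.83 (SE 0.28, adjusted p = 0.00270) and Ccl8, a monocyte chemokine, by 2.46 (SE 0.25, adjusted p = 0.000389), the latter from a C57 mean below the minimum signal. Tnfrsf12a, the receptor of TWEAK on muscle fibres, measured 7.16, 6.87 and 7.90 in C57 and 8.93, 9.37, 8.98 and 9.59 in mdx, a rise of 1.91 (SE 0.24, adjusted p = 0.00110). Il15, a cytokine made by muscle fibres, was the gene that fell, by 0.77 on the log2 scale (SE 0.15, adjusted p = 0.00903).

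Of 32 tested lysosome genes 13 rose and 0 fell, with a median of 0.37, and without C57 replicate 2 the count was 6. Laptm5, a lysosomal membrane protein of blood cells, rose by 1.55 (adjusted p = 0.000327), Ctsk by 1.23 (adjusted p = 0.00578) and Lgmn, legumain, by 1.13 (adjusted p = 0.00114). Lamp1, Psap and Ctsd, made by nearly all cells, had differences of -0.01, 0.02 and 0.15, and Tfeb, the transcription factor of lysosomal genes, of -0.19, and none was called. Of 23 genes of oxidative stress 8 rose and 2 fell (7 and 2 in probe sets of 1 transcript), around a median of 0.03 that was -0.01 with median-centred arrays. Those that rose included Cybb and Cyba, the membrane subunits of the phagocyte NADPH oxidase, by 1.68 and 0.79 (adjusted p = 0.000255 and 0.0182). Those that fell were Prdx6, a peroxiredoxin, and Gsta4, a glutathione transferase, by 0.45 and 0.50 on the log2 scale (adjusted p = 0.00800 and 0.0193). The higher genes numbered 4 without C57 replicate 1 and 5 without C57 replicates 2 or 3 or mdx replicate 2, and the lower genes 1 without C57 replicates 1 or 2 or mdx replicate 3, Cyba (adjusted p up to 0.0764) and Gsta4 (up to 0.0851) being lost without C57 replicates 1 or 2 and Gsta4 also without mdx replicate 3. The summed macrophage level given above was higher in mdx mice as well. Its part in the complement, chemokine and lysosome differences was not tested.

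The circadian clock differed between the groups in both of its arms. In the clock, BMAL1 with CLOCK or NPAS2 switches on the Per, Cry and Ciart genes, whose products return to stop them, and the same pair drives the output factors Dbp, Tef and Hlf. Of 13 tested repressors and output factors 10 fell and 0 rose, with a median difference of -0.95. All 13 had a negative difference, and in 11 of them every mdx mouse lay below every C57 mouse, against 11.7% of all symbols. Of 6 tested activators 2 rose and 0 fell (1 without C57 replicate 3), with a median of 0.34.

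Ciart (Gm129 in the files), a repressor of the clock, measured 9.69, 9.53 and 9.66 in C57 and 5.92, 6.03, 6.39 and 7.04 in mdx, a fall of 3.28 on the log2 scale (SE 0.23, adjusted p = 7.52e-05). Per2 measured 7.97, 8.16 and 7.83 in C57 and 5.64, 5.58, 5.89 and 6.15 in mdx, a fall of 2.17 (SE 0.15, adjusted p = 6.63e-05). Per3 fell by 1.60 (SE 0.13, adjusted p = 0.000125), and Cry2 by 0.95 (SE 0.14, adjusted p = 0.00197). Per1 was the most variable, with 9.06, 9.55 and 9.51 in C57 and 7.23, 6.90, 8.41 and 8.92 in mdx, and its fall of 1.51 (SE 0.43, adjusted p = 0.0423) was not called without any C57 mouse or without mdx replicates 1 or 2 (adjusted p up to 0.142). Cry1 had a difference of -0.32 that just missed the threshold (adjusted p = 0.0511).

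Among the output factors, Hlf measured 7.48, 7.78 and 7.57 in C57 and 5.28, 5.16, 5.65 and 5.70 in mdx, a fall of 2.16 (SE 0.15, adjusted p = 6.75e-05). Dbp fell by 1.68 (SE 0.13, adjusted p = 8.20e-05) and Tef by 0.51 (SE 0.09, adjusted p = 0.00578). Bhlhe41 fell by 0.71 (adjusted p = 0.00811), while its paralogue Bhlhe40 had a difference of -0.12 (adjusted p = 0.596). Nr1d2, the receptor REV-ERB beta, fell by 0.59 (adjusted p = 0.0406), a call that ended without any C57 mouse or mdx replicates 2, 3 or 4 (adjusted p up to 0.119). Nr1d1, REV-ERB alpha, had nearly equal levels, with 11.12, 11.18 and 11.30 in C57 and 11.04, 11.20, 11.10 and 11.13 in mdx and a difference of -0.08 (adjusted p = 0.601).

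Of the activators, Npas2 measured 4.95, 5.05 and 5.01 in C57 and 7.57, 8.00, 7.88 and 7.72 in mdx, a rise of 2.79 (SE 0.12, adjusted p = 3.24e-06). Bmal1 (Arntl in the files) measured 5.77, 5.30 and 5.31 in C57 and 6.93, 7.19, 6.93 and 6.93 in mdx, a rise of 1.54 (SE 0.14, adjusted p = 0.000184). Clock (0.51, adjusted p = 0.154), Nfil3 (0.18, adjusted p = 0.457) and Rora (-0.31, adjusted p = 0.202) were not called. The levels of these genes follow the time of day, and the hour at which each mouse was killed is not given in the sources used here, so its part in the differences was not tested.

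**Figure D3:**
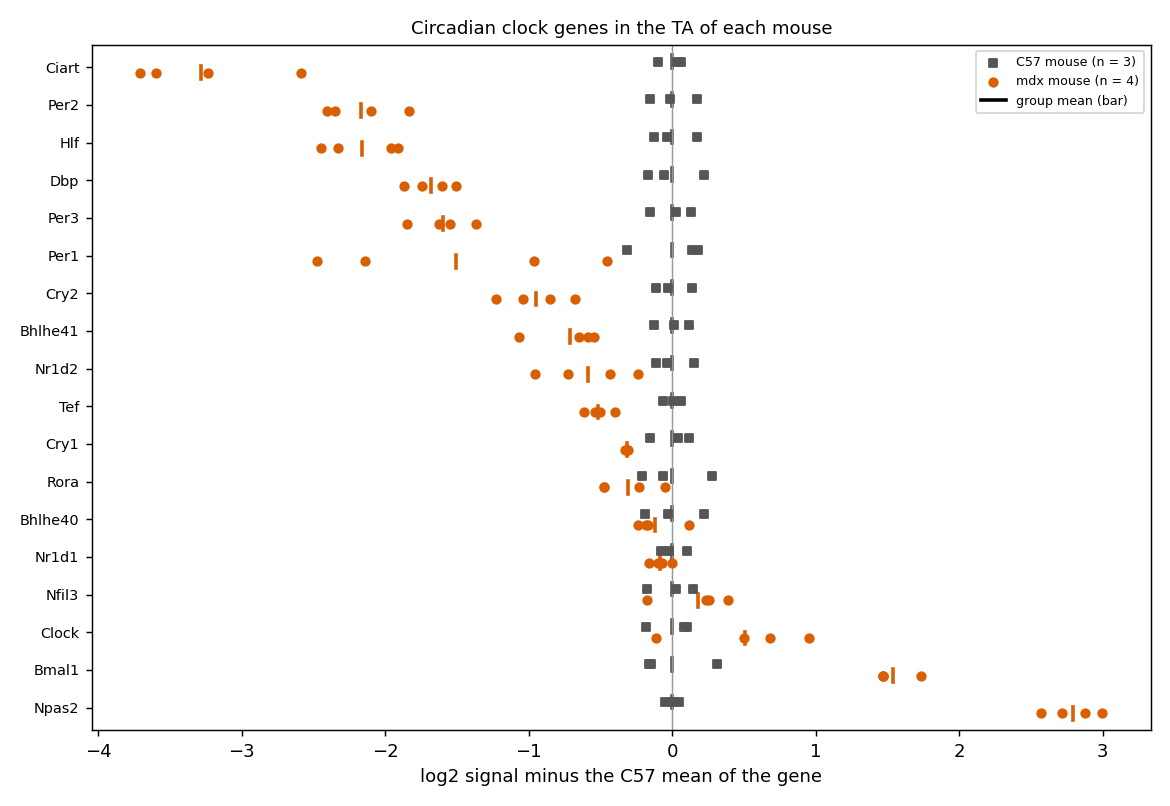
Log2 signal of the clock genes named above in each mouse, minus the C57 mean of the gene, with C57 mice (n = 3) as squares, mdx mice (n = 4) as circles and group means as bars. Ciart, Per2 and Hlf sat at the far left with differences of -3.28, -2.17 and -2.16, and Npas2 at the far right with 2.79, while Nr1d1 lay at 0 in both groups within the spread of the mice.

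The promoters of the clock genes were read for the E-box, CACGTG, to which the BMAL1 pair binds, and for the D-box, TTATGNAA, to which DBP, TEF and HLF bind. Both strands of the 250 bases before each RefSeq start (GRCm38.p6) were searched. The E-box was found in 5 of the 11 repressors and output factors in that table, against 6.86% of 27025 genes, and in 0 of 5 activators. The D-box was found in 2 of 11 and 0 of 5, against 3.63% of genes. The genes with the E-box were Ciart, Per1, Cry1, Tef and Bhlhe41, and those with the D-box were Per1 and Per3. Ciart held 3 copies of the E-box in chr3:95882237-95882374 (minus strand). The probe set that gave its difference of -3.28 is placed on chromosome 10 in the deposited table, while the other Ciart probe set, on chromosome 3 like the gene, gave -3.23. The E-box of Per1 lies in chr11:69098753-69098818 and its D-box in chr11:69098895-69098948 (plus strand), and Per3 held 2 copies of the D-box in chr4:151044786-151044900 (minus strand). The sequences run 5′ to 3′ with the matches in capitals, they are a description of the letters, and a gene with no match may have its sites elsewhere.
Ciart, E-box: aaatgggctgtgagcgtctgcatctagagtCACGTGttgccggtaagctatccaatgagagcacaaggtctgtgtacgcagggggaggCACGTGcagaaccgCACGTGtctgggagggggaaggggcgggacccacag
Per1, E-box: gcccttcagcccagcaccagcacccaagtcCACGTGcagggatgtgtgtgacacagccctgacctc
Per1, D-box: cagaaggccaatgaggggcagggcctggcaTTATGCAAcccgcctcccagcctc
Per3, D-box: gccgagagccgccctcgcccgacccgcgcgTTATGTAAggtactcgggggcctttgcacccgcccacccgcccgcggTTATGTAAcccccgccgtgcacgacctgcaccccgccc

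Genes that supply fuel to the mitochondria were lower in mdx muscle, while those of the respiratory chain differed by small amounts. Complexes I to V pass electrons from fuel to oxygen and make ATP, and fatty acids, ketone bodies and branched-chain amino acids are fuels that are broken down in the mitochondrial matrix before they reach the chain. Of 28 tested genes of fatty acid uptake and oxidation 11 fell and 0 rose, and 27 had a negative difference, around a median of -0.36. The count was 5 without C57 replicate 2 and 7 without C57 replicates 1 or 3 or mdx replicates 2 or 4. Mlycd, which breaks down malonyl-CoA, the inhibitor of fatty acid entry into mitochondria, measured 8.42, 8.58 and 8.76 in C57 and 7.88, 7.75, 7.87 and 7.70 in mdx, a fall of 0.79 (SE 0.11, adjusted p = 0.00151). Acacb, which makes malonyl-CoA, fell as well, by 0.69 (SE 0.13, adjusted p = 0.00673). Slc27a1, a fatty acid transporter, fell by 0.68 (adjusted p = 0.0106), and Ppara, the nuclear receptor of fatty acid oxidation genes, by 0.70 (adjusted p = 0.0185, or 0.0723 without C57 replicate 2). Of the oxidation enzymes, Echs1, Acaa2 and Cpt2 were among the 11 genes that fell. The call of Echs1 held without each mouse, and those of Acaa2 and Cpt2 did not. Acadm, Acadvl and Hadha had differences of -0.33, -0.31 and -0.11 and were not called. Ppargc1a, the coactivator PGC-1 alpha, had the single positive difference, 0.25.

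Of 20 tested genes for ketone bodies, acetate and branched-chain amino acids 9 fell and 0 rose, all 20 had a negative difference, and the median was -0.39. Without C57 replicate 2 the count was 5. Bdh1, which interconverts the ketone bodies, measured 7.25, 7.37 and 7.69 in C57 and 5.61, 5.99, 5.99 and 4.86 in mdx, a fall of 1.82 (SE 0.25, adjusted p = 0.00164). Acss1, the mitochondrial enzyme that activates acetate, fell by 1.03 (SE 0.14, adjusted p = 0.00157). Bckdhb, a subunit of the branched-chain ketoacid dehydrogenase, measured 9.09, 9.15 and 9.39 in C57 and 8.57, 8.42, 8.41 and 8.42 in mdx, a fall of 0.76 (SE 0.10, adjusted p = 0.00152). Mccc2, of leucine breakdown, fell by 0.59 (adjusted p = 0.0116, or 0.0540 without C57 replicate 2). Oxct1, the next enzyme in ketone use after Bdh1, had a difference of -0.15 and was not called.

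Of 78 nuclear genes of complexes I to V, 1 was called lower and 0 higher, and 65 had a negative difference, against 51.4% of all symbols. Their differences lay between -0.46 and 0.16. Of the 36 in complex I, Ndufa8 fell by 0.46 (SE 0.09, adjusted p = 0.00916), with all mdx mice between 11.26 and 11.45 and all C57 mice between 11.77 and 11.92, and the median was -0.11. Of the 42 in complexes II to V none was called, the median was -0.08, and the lowest adjusted p was 0.0742 for Sdhb, an iron-sulphur subunit of complex II. In the citric acid cycle and pyruvate entry, 2 of 25 fell and 0 rose with a median of -0.18. These were Idh2 (-0.60, adjusted p = 0.0131, or 0.0511 without C57 replicate 2), the NADP-dependent isocitrate dehydrogenase, and Mpc2 (Brp44 in the files; -0.43, adjusted p = 0.0443), a pyruvate carrier, whose call ended without any mouse other than mdx replicate 2 (adjusted p up to 0.131). The count was 0 without C57 replicate 2 and 1 without the other mice that ended the call of Mpc2. With arrays centred on their median, 2 genes of complex I, 1 of complexes II to V and 4 of the citric acid cycle were called lower.

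Glycolysis and glycogen genes moved both ways, with 4 of 32 higher and 4 lower around a median of -0.001 that was 0.02 after repeated quantile normalization. Ldhb, the lactate dehydrogenase subunit of oxidative tissue, read by a probe set that matches more than 1 transcript, measured 8.99, 9.17 and 9.23 in C57 and 8.34, 7.85, 8.00 and 7.22 in mdx, a fall of 1.28 (SE 0.22, adjusted p = 0.00478), and fell by 1.38 in its probe set of 1 transcript (adjusted p = 0.00240), while the muscle subunit Ldha had a difference of -0.02. Fbp2, the fructose bisphosphatase of muscle, fell by 0.86 (adjusted p = 0.00952). Eno1, the enolase of non-muscle cells, rose by 0.64 (SE 0.10, adjusted p = 0.00231) in a probe set that matches more than 1 transcript and by 0.69 in that of 1 transcript (adjusted p = 0.00306), while the muscle enolase Eno3 had a difference of 0.05. Pfkp and Hk1, forms of phosphofructokinase and hexokinase found outside mature muscle, rose by 0.66 and 0.40, Pgm2 (Pgm1 in the files) by 0.43, and Pfkfb1 and Pfkfb4, which set the level of the activator of phosphofructokinase, fell by 0.74 and 0.51. The calls of Pfkp, Hk1, Pgm2, Pfkfb1 and Pfkfb4 each ended without C57 replicate 2 and without at least 2 other mice (adjusted p up to 0.147), and so the higher genes numbered 1 or 2 without C57 replicates 2 or 3 or mdx replicates 1, 2 or 3. The lower genes numbered 2 without C57 replicates 1 or 2 or mdx replicate 3, and with median-centred arrays 2 genes were higher and 5 lower.

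**Figure D4:**
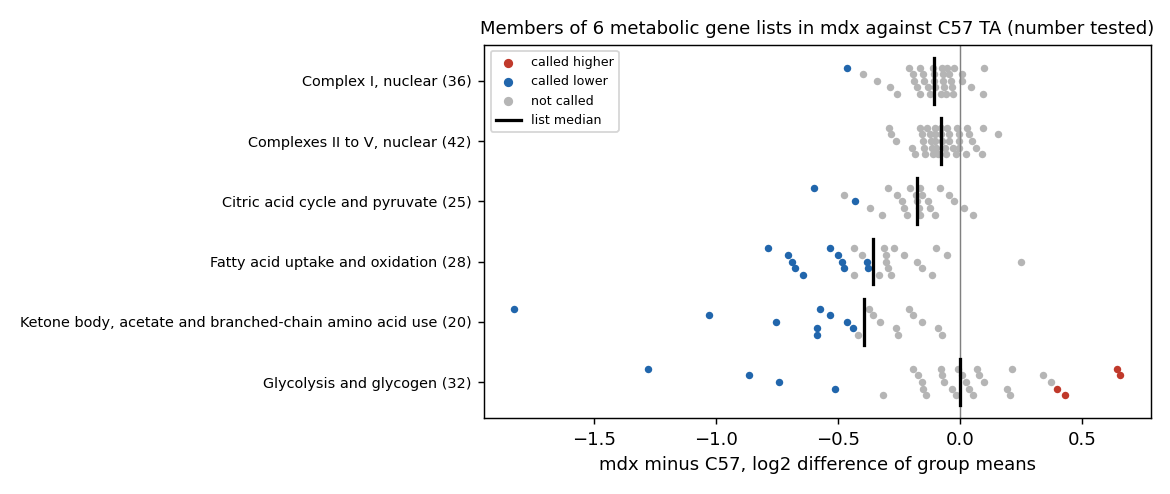
Difference between the mdx (n = 4) and C57 (n = 3) means on the log2 scale for every tested member of 6 metabolic gene lists, with called genes in colour and the list median as a black bar. The fatty acid and ketone lists had medians of -0.36 and -0.39, and the members of the respiratory chain lists lay between -0.46 and 0.16.

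Targets of glucocorticoids and FoxO, which include the genes of muscle atrophy, were mixed, with 3 of 25 higher, 4 lower and a median of -0.08. The ubiquitin ligases of atrophy, Fbxo32 and Trim63, had differences of 0.03 and 0.07. Mt2, a metallothionein, measured 9.66, 10.03 and 10.05 in C57 and 12.60, 12.15, 11.97 and 12.82 in mdx, a rise of 2.47 (SE 0.20, adjusted p = 0.000128), and Mt1 rose by 1.5 (adjusted p = 0.00393). Klf15, a glucocorticoid-induced regulator of amino acid and lipid use, fell by 0.69 (SE 0.09, adjusted p = 0.00110), with 8.29, 8.30 and 8.46 in C57 and 7.68, 7.64, 7.69 and 7.62 in mdx. Ucp3, a mitochondrial carrier of muscle, fell by 0.88 (adjusted p = 0.0123), Irs2 by 0.64 and Cebpb by 0.69. Angptl4, a lipase inhibitor, rose by 1.26 (adjusted p = 0.0398, up to 0.146 without single mice other than mdx replicate 1). Irs2 (adjusted p up to 0.0650) and Cebpb (up to 0.121) were not called without C57 replicates 2 or 3, and Cebpb also without mdx replicates 1 or 2, and the lower genes numbered 2 without either of those C57 mice.

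Of 17 tested ion and water channels 6 fell and 1 rose, with a median of -0.16. Clcn1, the chloride channel of muscle, measured 10.28, 10.38 and 10.31 in C57 and 9.67, 9.71, 9.64 and 9.88 in mdx, a fall of 0.60 (SE 0.09, adjusted p = 0.00308). Kcnma1 and Kcnc4, potassium channels, fell by 0.87 and 0.81 (adjusted p = 0.00365 and 0.00302), and Scn4a, the sodium channel of muscle, by 0.57. Aqp4, the water channel bound to the dystrophin complex through syntrophin, fell by 0.80 (adjusted p = 0.0498), a call that ended without C57 replicates 2 or 3 or mdx replicates 3 or 4 (adjusted p up to 0.167). The gene that rose was Kcnn3, a calcium-activated potassium channel that appears in denervated fibres, by 0.98 (SE 0.11, adjusted p = 0.000705), with 6.87, 7.28 and 6.95 in C57 and 8.11, 7.97, 7.97 and 8.02 in mdx. Of 26 tested genes of calcium handling 1 rose and 0 fell (1 without mdx replicate 2), with a median of -0.04. That gene was Atp2a2, given above, while Ryr1, the calcium release channel, had a difference of -0.26 and Atp2a1, the fast calcium pump, of -0.01.

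At the neuromuscular junction 3 of 17 genes rose and 0 fell (1 without C57 replicate 1), around a median of 0.02 that was -0.02 with median-centred arrays. All 3 were subunits of the acetylcholine receptor: Chrng, given above, Chrna1, which rose by 1.15 (SE 0.14, adjusted p = 0.000891), and Chrnb1, which rose by 0.77 (SE 0.12, adjusted p = 0.00252). The adult subunit Chrne had a difference of -0.26 and the clustering genes Musk and Rapsn of 0.15 and -0.03.

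Genes of Schwann cells and myelin were lower. Of 15 tested members 8 fell and 1 rose, and the median was -0.54. The lower genes numbered 4 without mdx replicate 2 and 5 without C57 replicate 2 or mdx replicates 1 or 3. Mbp, a structural protein of myelin, measured 6.59, 6.54 and 7.33 in C57 and 5.68, 5.71, 6.06 and 5.82 in mdx, a fall of 1.00 on the log2 scale (SE 0.19, adjusted p = 0.00729). C57 replicate 3 was the highest mouse, and Mbp was called without it. Ncmap (A330049M08Rik in the files), a myelin protein, fell by 0.82 (adjusted p = 0.00167) to an mdx mean below the minimum signal, and Cldn19, a claudin of Schwann cells, by 0.72 (adjusted p = 0.0274, up to 0.0666 without C57 replicate 2 or mdx replicates 1, 2 or 3). Pmp22, another myelin protein, which fibroblasts also make, had a difference of 0.00. The gene that rose was Egr2, which drives myelination but is also induced in activated white blood cells, by 0.77 (adjusted p = 0.0119, or 0.0507 without C57 replicate 2, when the count of higher genes was 0). The summed intensity of the list was 2283 to 3328 in C57 and 1820 to 2218 in mdx mice, and how much nerve each section held was not tested.

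Genes of axon guidance, a pathway that the study itself drew from these mice and that is therefore no independent evidence of its direction, had 7 of 35 members higher and 0 lower with a median of 0.16. The higher genes numbered 2 without C57 replicate 2, 3 without mdx replicate 3, and 4 without C57 replicate 3 or mdx replicate 2, and 1 gene was lower without C57 replicate 1 or mdx replicate 4. Plxnb2, a semaphorin receptor, rose by 0.66 (SE 0.10, adjusted p = 0.00244), with 7.77, 7.85 and 7.79 in C57 and 8.29, 8.53, 8.43 and 8.59 in mdx, and Sema5a rose by 0.65 (adjusted p = 0.0101). Efna2, an ephrin with a C57 mean below the minimum signal, and Sema4a rose by 0.65 and 0.46, calls that ended without C57 replicates 2 or 3 or mdx replicate 3, and for Sema4a without C57 replicate 1 or mdx replicates 2 or 4 as well (adjusted p up to 0.0894 and 0.106).

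Secreted antagonists of Wnt signalling changed in both directions. Of 29 tested Wnt and Notch genes 7 fell and 2 rose, with a median of -0.08. The lower genes numbered 4 without C57 replicate 2 or mdx replicate 3, and the higher genes 1 without C57 replicates 2 or 3 or mdx replicate 4. Frzb measured 6.39, 6.66 and 6.80 in C57 and 4.72, 4.27, 4.57 and 4.46 in mdx, a fall of 2.11 (SE 0.14, adjusted p = 4.67e-05) to an mdx mean below the minimum signal. Sfrp5 fell by 1.53 (SE 0.17, adjusted p = 0.000496), while Sfrp2, of the same family, measured 6.21, 5.85 and 5.75 in C57 and 6.88, 7.55, 7.95 and 7.87 in mdx, a rise of 1.63 (SE 0.24, adjusted p = 0.00211). Sfrp1 rose by 0.62 (adjusted p = 0.0293), a call that ended without C57 replicates 2 or 3 or mdx replicates 2 or 4 (adjusted p up to 0.104). Axin2, a direct target of the Wnt pathway, fell by 0.91 (SE 0.13, adjusted p = 0.00199), and Fzd9, a receptor, by 0.80 (adjusted p = 0.00371).

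Among p53 targets 2 of 18 rose and 1 fell, with a median of 0.11. This was 16.7% called, near the 14.9% of all symbols. Cdkn1a, the cell cycle inhibitor p21, measured 7.66, 7.69 and 8.01 in C57 and 9.71, 9.54, 9.98 and 10.06 in mdx, a rise of 2.04 (SE 0.15, adjusted p = 7.66e-05). Eda2r rose by 0.82 (adjusted p = 0.00998) and Perp fell by 0.88 (adjusted p = 0.00597) to an mdx mean below the minimum signal, whereas Mdm2 and Ccng1, close readouts of p53, had differences of 0.11 and -0.08. Of 35 genes of cell division 21 stayed below the minimum signal, and 3 of the 14 tested rose, with a median of 0.23. Rrm2, of nucleotide synthesis, rose by 1.11 (adjusted p = 0.000466), Plk1, a mitotic kinase, by 0.79 and Ccnb2, a cyclin, by 0.49, all from C57 means below the minimum signal. All 3 were thus tested only through their mdx means, which favours rises in this count. Without C57 replicate 2 the count was 1, Plk1 then having an adjusted p of 0.0531, and Ccnb2 was lost without any mouse other than mdx replicate 1 (adjusted p up to 0.112).

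Markers of fat, vessels and blood did not move as groups. Of 16 tested adipocyte genes 2 rose and 1 fell, with a median of 0.14. Dgat2, which makes triglycerides and is also expressed in muscle fibres, measured 9.34, 9.70 and 9.90 in C57 and 7.96, 7.95, 8.05 and 7.80 in mdx, a fall of 1.71 (SE 0.14, adjusted p = 0.000119), while Adipoq, the defining fat cell hormone, had a difference of 0.20. Cidea rose by 0.86 from a C57 mean below the minimum signal and Thrsp by 0.51, the latter not without C57 replicates 1 or 2 or mdx replicate 2 (adjusted p up to 0.0808), and the higher genes numbered 4 without mdx replicate 1. Without C57 replicate 3 or mdx replicate 4 there were 2 lower genes. Of 23 endothelial and mural cell genes 1 rose and 3 fell, with a median of -0.09. Cldn5, the tight junction claudin of vessels, rose by 1.20 (SE 0.13, adjusted p = 0.000496), with 7.70, 7.81 and 7.90 in C57 and 9.03, 9.30, 8.80 and 8.87 in mdx, while Pecam1 and Cdh5 had differences of 0.06 and 0.27. Vwf, Myh11 and Cnn1 fell by 0.33, 0.51 and 0.63, but Vwf was not called without any of the 7 mice (adjusted p up to 0.112) and Cnn1 not without C57 replicates 2 or 3 or mdx replicates 1, 2 or 3 (up to 0.0979), which left 1 lower gene. The higher genes numbered 2 without C57 replicate 1 and 3 without mdx replicate 4. Of 6 red blood cell genes none was called, with a median of 0.01, and the lowest adjusted p was 0.727 for Slc4a1.

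The plot of list means shows how the programmes varied among the 4 mdx mice. The mean of the regenerating fibre list over its C57 mean was 1.07, 1.02, 1.32 and 0.89 in mdx replicates 1 to 4, and that of the macrophage list was 0.99, 1.65, 1.27 and 1.49. Mdx replicate 3 was thus the highest for fibre genes and mdx replicate 2 for macrophage genes. The fatty acid list stood at -0.25, -0.32, -0.31 and -0.58 and the ketone and amino acid list at -0.33, -0.38, -0.49 and -0.70, with mdx replicate 4 the lowest in both, as it was for complex I at -0.24. The slow fibre list ranged from -0.06 in mdx replicate 4 to 0.51 in mdx replicate 3, and the adipocyte list from -0.39 in mdx replicate 1 to 0.30 in mdx replicate 2. With 4 mice, no relation between lists across mice was tested.

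**Figure D5:**
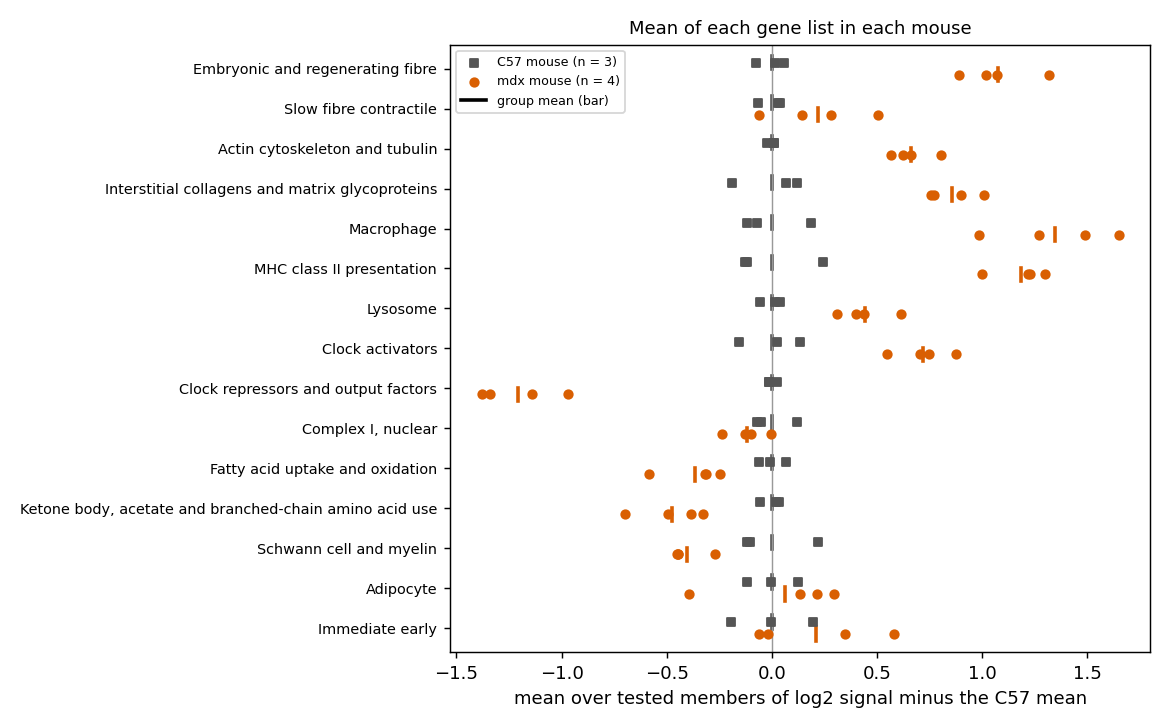
Mean over the tested members of 15 gene lists of the log2 signal minus the C57 mean of each gene, with C57 mice (n = 3) as squares, mdx mice (n = 4) as circles and group means as bars. The mdx mice lay apart from the C57 mice for the regenerating fibre, macrophage and clock lists, and overlapped them for the slow fibre and adipocyte lists.

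Several of the largest called differences in genes whose C57 and mdx means both reached the minimum signal belonged to no list. Pcbd1, a pterin dehydratase and cofactor of HNF1, measured 4.98, 4.80 and 5.30 in C57 and 7.79, 7.86, 7.74 and 7.81 in mdx, a rise of 2.77 (SE 0.12, adjusted p = 3.24e-06). Serpina3n, a secreted serine protease inhibitor, rose by 2.67 (SE 0.34), Ttc9 by 2.59 (SE 0.18) and Mdfi, an inhibitor of myogenic factors, by 2.14 (SE 0.19). Snord116, a small nucleolar RNA whose probes match more than 1 transcript, rose by 4.34 (SE 0.28). That symbol has 21 probe sets, of which the one with the highest mean was read. The C57 mean intensities of Pcbd1 and Snord116, 32.94 and 34.99, lay close to the minimum signal. In both genes the lowest C57 mouse lay below it. Among the falls, Dusp26, a phosphatase, measured 8.92, 9.10 and 9.22 in C57 and 6.09, 6.2, 6.42 and 5.65 in mdx, a difference of -2.99 (SE 0.17, adjusted p = 2.31e-05). Ces1d, a carboxylesterase that hydrolyses triglycerides, fell by 3.09 (SE 0.24), and Ppp1r1a, an inhibitor of protein phosphatase 1, fell by 2.96 (SE 0.19). Slc15a5 fell by 2.17 (SE 0.27), Cntfr, the receptor of ciliary neurotrophic factor, fell by 1.67 (SE 0.19), and Rasd2 fell by 1.61 (SE 0.16).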

How the data were processed

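The authors hybridized RNA of each mouse to a Mouse Gene ST 1.1 array and made the values in Affymetrix Expression Console, where background was corrected by RMA, arrays were normalized by sketch-quantile and probes were summarized by median polish. They deposited intensity on the linear scale for 28350 probe sets, rounded so that log2 falls on whole hundredths, and their removal of probe sets under 30 had not been applied. Median intensity was 27.5 to 28.6 per array. Precision is limited by the small number of mice. The limma p-values set each difference against a spread between mice that is partly shared across genes.

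From these, log2 values of 7 arrays were fitted in R 4.3.3 with limma 3.58.1 (a mean for each of the groups, lmFit and eBayes) over 11624 symbols, 1 probe set each. Probe sets needed a mean intensity of 30 in at least 1 group. Lists were read with Python 3.11.15 and pandas 2.3.3, and plots drawn with matplotlib 3.10.9. Tested on simulated data, the fit recovered 72% at 1.5-fold and 98% at 2-fold, with 16 false calls. The simulated noise was normal, had the spread estimated by the fit and was independent between genes and mice. Far fewer symbols were changed than were called here. These figures therefore do not give the error rate in the real mice. Current names were found for 21004 of 21759 symbols, and promoters come from RefSeq (GRCm38.p6). The deposited positions name no build, and their chromosomes alone were used.

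The members and lists were chosen with earlier results of these data known. Named genes are, per list, up to 4 called members with the largest difference in each direction (or the lowest adjusted p where none was called), the 15 symbols with the largest called difference in each direction whose groups do not overlap and reach 30, and the dystrophin complex and clock lists. Some list members are counted but not reported here by name. Other list members named were chosen after their values were seen. Alternatives were other tests, filters, scalings, probe set rules, thresholds, a replicate block, leaving out each mouse and, chosen after seeing the data, probe sets marked as matching 1 transcript.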

Additional observations from a re-analysis of the deposited data

Results flagged for a closer look

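In 10 of the 215 named genes, 1 of the 4 mdx mice lay far from the other 3 for the spread of the group, and chance alone puts about 5% of groups of this size past that limit. Mdx replicate 1 was high for Mybph at 9.06 against 8.17 to 8.23 in the other mice, and for Bckdhb at 8.57 against 8.41 to 8.42. Mdx replicate 2 was high for Dpt at 9.90 against 9.39 to 9.46, for C3ar1 at 8.72 against 7.78 to 7.88, and for Bmal1 (Arntl) at 7.19 against 6.93 in each of the others. Mdx replicate 3 was high for Slc27a1 at 9.56 against 9.26 to 9.28 and low for Eno1 at 11.02 against 11.23 to 11.25. Mdx replicate 4 was low for Aspn at 5.13 against 6.33 to 6.56, and high for Pfkfb4 at 7.74 against 7.21 to 7.30 and for Mdfi at 8.13 against 7.30 to 7.38. All values are log2 signals.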

How the results depend on the processing

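Of the 190 named genes that were called, 134 were called in every fit without 1 mouse. Against 1096 higher and 631 lower, the counts were 446 and 247 by the methods' t-test after Benjamini-Hochberg adjustment and 1646 and 1378 at its unadjusted p under 0.05, 137 and 68 by an unequal-variance test, 1757 and 1260 with array weights, 724 and 527 with a minimum signal of 100 (fewer symbols tested), 669 and 262 with a minimum of 1.5-fold, 680 and 268 at an unadjusted p under 0.01 with 1.5-fold, and 593 to 1005 and 295 to 549 with each mouse left out. The trended prior (1153 and 709), no filter (1019 and 566), all 11 arrays (966 and 625) and the other scalings and probe set rules stayed within 1.5 times. With a replicate block 880 and 430 were called, but same-numbered mice did not deviate together (correlations of -0.08, -0.15 and 0.02), so the numbers were not taken to pair the mice. With probe sets of 1 transcript, chosen after seeing the data, 1052 and 629 were called, and Tpm3 turned to -0.1117. Members near 0 changed sign: Sgca was 0.0138 with array weights and Sgcd 0.06 with the replicate block. With each mouse left out, the differences ranged from -0.0375 to 0.24 for Utrn, -0.05 to 0.005 for Sgca, -0.14 to 0.06 for Sgcd, -0.0275 to 0.13 for Sspn, -0.10 to 0.005 for Dtnb and -0.30 to 0.10 for Slc4a1. Arrays of 3 and 4 mice limit all of these, and the cause of each shift was not tested.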

Other observations

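The remaining gene groups are given by their counts, to be read against 9.43% higher and 5.43% lower over all symbols. Of 21 tested growth factor genes 2 rose and 4 fell, with a median difference of 0.11. Igf1, which supports fibre growth and is made by macrophages as well as muscle, measured 6.65, 6.45 and 6.51 in C57 and 7.37, 7.6, 7.41 and 7.15 in mdx, a rise of 0.85 (SE 0.12, adjusted p = 0.00167), and the receptor gene Igf1r fell by 0.43, a call that ended without any C57 mouse or mdx replicates 1 or 2 (adjusted p up to 0.148). Without single mice 1 gene rose (any mouse other than mdx replicate 1) and 1 or 2 fell (C57 replicates 1 or 2 or mdx replicates 1, 2 or 3). Vegfd (Figf in the files), a lymphatic growth factor, fell by 0.75 (adjusted p = 0.00699). In the sterol and fatty acid synthesis list 5 of 28 rose and 1 fell, with 1 higher without C57 replicate 2 and 2 lower without C57 replicate 3. Fdft1, squalene synthase, fell by 0.98 (SE 0.09, adjusted p = 0.000265) in a probe set that matches more than 1 transcript and by 0.60 in that of 1 transcript (adjusted p = 0.00274), with 10.51, 10.59 and 10.48 in C57 and 9.53, 9.61, 9.64 and 9.41 in mdx, while Sqle, the next enzyme of the pathway, rose by 0.94 from a C57 mean below the minimum signal, a call that ended without any C57 mouse or mdx replicate 4 (adjusted p up to 0.0893). Gatm, which starts creatine synthesis, rose by 1.00 (SE 0.14, adjusted p = 0.00199), 1 of 3 higher and 0 lower genes among 14 of polyamine and creatine metabolism (1 lower without mdx replicates 2 or 4).

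Of 24 tested genes of endoplasmic reticulum stress 5 rose and 2 fell, with a median of 0.22 and 3 higher without C57 replicates 2 or 3 or mdx replicate 2. Sdf2l1 and Pdia3, chaperones of protein folding, rose by 0.85 and 0.60, while Ddit3, the stress factor CHOP, fell by 0.61. Of 16 heat shock genes none was called in limma, and the lowest adjusted p was 0.0946 for Hspb8 (0.27), but 2 were called higher without C57 replicate 3 and 1 in probe sets of 1 transcript. Of 20 immediate early genes, which respond within minutes to handling and activity, 2 rose and 1 fell. This was 15% called, near the 14.9% of all symbols. Socs3, which also follows cytokine signals, rose by 1.54 (SE 0.32, adjusted p = 0.0116), while the calls of Egr1 (0.79) and Nr4a1 (-0.86) ended without C57 replicate 2 or mdx replicate 1, Egr1 also without C57 replicate 1 or mdx replicates 3 or 4, and Nr4a1 also without C57 replicate 3 or mdx replicate 2 (adjusted p up to 0.125 and 0.097). Without mdx replicate 4, 2 of these genes were lower.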
